A study of Mus musculus with 8 samples.

Results

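Acetylcholine is made, packed, recovered and broken down by a small set of proteins, and the genes for 6 of them, Chat, Slc18a3, Slc5a7, Slc10a4, Ache and Prima1, were followed through single neurons of the mouse stellate ganglion. The genes were chosen by symbol for these roles, and all 6 are among the 19224 genes measured. Their levels were compared across the 8 neuronal subtypes named by the authors and across mice, with the cholinergic Ach2 neurons set against the 5 noradrenergic subtypes NA1a, NA1b, NA1c, NA2 and NA3.

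Choline acetyltransferase (Chat) joins choline to an acetyl group, the vesicular acetylcholine transporter (Slc18a3) loads the product into synaptic vesicles, and the high-affinity choline transporter (Slc5a7) takes choline back into the terminal after release. Acetylcholinesterase (Ache) splits released acetylcholine, and Prima1 encodes the proline-rich membrane anchor that holds the enzyme at the neuronal surface, while Slc10a4 encodes an orphan transporter of the bile acid carrier family found on vesicles of cholinergic and monoaminergic neurons. Most postganglionic sympathetic neurons release noradrenaline, and a minority, known best for supplying sweat glands, release acetylcholine.

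The study profiled stellate ganglia of adult male C57BL6/J mice, 8 to 10 weeks old, in a single condition. All mice had received an adeno-associated virus carrying GFP in the heart and one carrying tdTomato in the front paws, so no mouse without virus is available for comparison and each mouse is a replicate. Capture used the 10x Genomics system, where each RNA molecule gets a molecular tag (UMI) so that copies count once, and the notes describe left and right ganglia combined for digestion in a number that takes several mice, without saying how the ganglia of each mouse were kept apart. Of 8 mouse names, 5 matched 1 sample each (replicates 1 to 5, all of batch 2, 1002 neurons). The 3 others (301 neurons) enter no test over mice, only values pooled over all 1303 neurons and values given for them apart. The 3 samples left without a match are all of batch 1, so by elimination the pooled values mix batches.

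A level is the mean over neurons of UMIs per 10000 UMIs of the neuron. The median depth was 4414.5 UMIs per neuron in the 62 Ach2 neurons, 3892.5 in the 1140 noradrenergic neurons, 2206.5 in the 64 Ach1 neurons and 3285 in the 37 Glut neurons. Replicates 1 to 5 held 13, 5, 6, 17 and 5 Ach2 neurons, so that a value for 1 mouse rests on few cells. Ach1 came nearly whole from 1 mouse, with 55 of its 64 neurons in replicate 4. Each interval on a share is a 95% Clopper-Pearson (exact) interval, and like the limits given for counts of 0 it covers counting error only.

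Libraries of these 5 mice shared cell barcodes. Of the 1303 neurons, 73 carried 1 of 21 barcodes that occurred in several libraries, all of them in replicates 1 to 5, and 20 of the 21 barcodes had 1 subtype in every library. They made up 31.4% of all NA2 neurons (55 neurons), 24.2% of Ach2 (15 neurons with 4 barcodes) and 8.11% of Glut (3 neurons), and 0 of the other 5 subtypes. The shares of NA2 and Ach2 are larger within replicates 1 to 5, which alone enter the tests over mice. Pairs of neurons with the same barcode in different libraries had a mean correlation of 0.497 over genes (96 pairs), against 0.461 for pairs of the same subtype with different barcodes (1132 pairs). One Ach2 barcode had 19, 32, 30 and 21 UMIs of Vip and 6, 4, 3 and 3 UMIs of Sst in 4 libraries. The comparisons of the 6 genes between Ach2 and noradrenergic neurons over mice, and those of NA2 for Slc10a4, Ache and Prima1, are therefore given with and without these neurons. Without them, replicates 1 to 5 keep 10, 2, 2, 13 and 4 Ach2 neurons.

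The marker lists went with the label Ach2, less clearly with the label noradrenergic in NA3 than in the other subtypes, and not with the label Ach1. In Ach2, genes of cholinergic sympathetic neurons (Vip, Cartpt, Htr3a, Ret, Gfra2, Gfra3, Tlx3, Sst and Calca) summed to 132 UMIs per 10000 with all 9 detected (59.0 to 144 over 5 mice), against 3.22 in noradrenergic neurons (1.92 to 4.5). The 10 noradrenergic genes, among them the synthesis enzymes Th and Dbh, summed to 22.5 in Ach2 (19.4 to 25.5) and 58.9 in noradrenergic neurons (55.8 to 65.6). Within the latter the sum was 57.6 to 69.1 in NA1a, NA1b, NA1c and NA2, and 33.1 in NA3, nearer to Ach2. Ach1 had 8.61 of the cholinergic list, with Tlx3 at 0, and 77.5 of the noradrenergic list. Vip was found in 62.5% of Ach1 neurons, against 12.5% of noradrenergic and 96.8% of Ach2 neurons. Markers of other cells in Ach1 summed to 124 UMIs per 10000 for satellite glia, 49.0 for fibroblasts and 5.72 for immune cells, against 11.2, 0.705 and 0.226 in Ach2, and their part in its values was not tested. No Chat UMI was found in its 64 neurons, so Ach1 is kept apart here by its name only and enters no test. The study named Vip, Cartpt, Htr3a and Slc18a3 on these same cells, and the subtypes were clustered on all genes. The tests between subtypes are therefore not independent evidence of a difference. A limma p also pools the spread of all profiles, so it does not by itself measure how steady a difference is from mouse to mouse.

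Chat and Slc18a3 sit at a single locus, which bears on how their reads can be told apart. In GENCODE M21 on GRCm38, Chat spans chr14:32408203-32465989 on the minus strand with 16 exons in its longest coding transcript, and the single exon of Slc18a3, chr14:32462438-32464850 on the same strand, lies wholly inside intron 1 of Chat (chr14:32460914-32465806, 4893 bases). The Slc18a3 exon starts 956 bases after the end of the first Chat exon and overlaps Chat exons by 0 bases. Reads from unspliced Chat RNA over the Slc18a3 exon would lie on its strand, and their part in the Slc18a3 count was not tested.

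**Figure D1:**
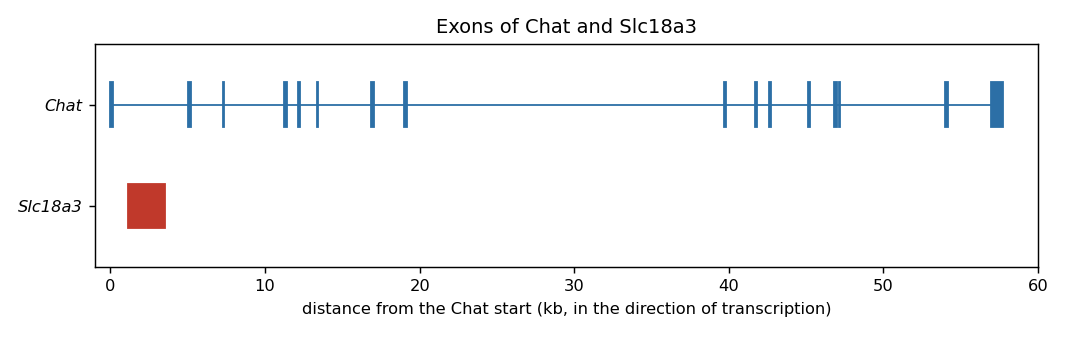
Exons of the longest coding transcript of Chat and of Slc18a3 in GENCODE M21, drawn to scale against the distance from the Chat start in kb in the direction of transcription. The single Slc18a3 exon lies within intron 1 of Chat and touches none of its 16 exons.

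The bases just upstream of the 3 genes that mark Ach2 are shown because these genes were all called higher in Ach2 while their upstream sequences differ in base composition. They are RefSeq sequences on GRCm38.p6, minus strand, 5′ to 3′, up to the base before the first annotated exon, and capitals mark the letters CGTCA, the core of the element that cAMP response factors bind. The windows are chr14:32465990-32466159 for Chat (170 bases), chr14:32464851-32465100 for Slc18a3 and chr17:54299035-54299284 for Slc5a7 (250 bases each). Slc5a7 itself has 9 exons on the minus strand, chr17:54273590-54299034.
Chat: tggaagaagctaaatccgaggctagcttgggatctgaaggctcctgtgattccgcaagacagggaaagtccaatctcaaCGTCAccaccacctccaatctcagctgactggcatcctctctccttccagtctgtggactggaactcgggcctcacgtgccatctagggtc
Slc18a3: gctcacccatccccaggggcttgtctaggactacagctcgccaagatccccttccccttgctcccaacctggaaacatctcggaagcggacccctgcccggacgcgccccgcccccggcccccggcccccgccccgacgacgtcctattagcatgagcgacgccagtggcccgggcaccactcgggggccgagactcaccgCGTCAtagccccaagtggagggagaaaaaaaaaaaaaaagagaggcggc
Slc5a7: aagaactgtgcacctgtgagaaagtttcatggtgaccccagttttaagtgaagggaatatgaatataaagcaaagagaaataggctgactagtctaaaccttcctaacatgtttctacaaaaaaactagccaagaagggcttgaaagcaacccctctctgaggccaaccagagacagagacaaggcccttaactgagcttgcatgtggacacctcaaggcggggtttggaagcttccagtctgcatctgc

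The CGTCA letters, searched on both strands as CGTCA or TGACG, occur 1 time in the Chat window, 91 bases before its end, 1 time in the Slc18a3 window, 49 bases before its end, and 0 times in the Slc5a7 window. Of the upstream windows of 32851 promoters, 17.8% of those with 250 bases and 9.9% of those with 170 bases hold them. The Slc18a3 window has 66.0% G and C and holds 2 matches to the GC box (GGGCGG or CCGCCC, in 32.7% of all 250-base windows), which the other 2 windows lack. The Slc5a7 window has 45.6% G and C and 1 match to the TATA letters (TATAAA or TTTATA, in 12.4% of all 250-base windows). The Chat window has 54.7% G and C, and the median of all 250-base windows is 52.4%. Gm2990, an antisense gene on the plus strand, overlaps the Chat gene, and its exons were not compared with these windows. A match of letters describes the window and shows no binding.

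The synthesis enzyme Chat was found almost nowhere but in Ach2. Over all neurons, 20 of 62 Ach2 neurons had a UMI of Chat (32.3%, interval 20.9 to 45.3%), with 40 UMIs in all and up to 5 in a neuron. Of 1140 noradrenergic neurons 1 had a UMI, an NA3 neuron (0.0877%, interval 0.00222 to 0.488%). That neuron, of an unmatched mouse, held 12074 UMIs, with 11 of Vip and 0 of the noradrenergic genes Th, Dbh, Slc18a2, Slc6a2 and Ddc. The count was 0 of 316 in NA1a, which allows a share of up to 0.949%, 0 of 311 in NA1b (up to 0.965%), 0 of 239 in NA1c (up to 1.26%) and 0 of 175 in NA2 (up to 1.71%). It was also 0 of 64 in Ach1, which allows up to 4.69%, and 0 of 37 in Glut, which allows up to 8.11%, so that these small subtypes are bounded less tightly. With neurons thinned to 2000 UMIs each, 11 of 54 Ach2 neurons (20.4%) and 0 of 952 noradrenergic neurons kept a UMI.

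In replicates 1 to 5, Chat averaged 0.892, 2.11, 0.307, 1.30 and 0 UMIs per 10000 in Ach2, and 0 in the noradrenergic neurons of each mouse. The 4 mice with a Chat UMI in Ach2 thus lie above their own noradrenergic neurons, and in replicate 5 none of 5 Ach2 neurons had one. The Ach2 levels left by removing shared barcodes were 0.768, 5.29, 0.920, 1.71 and 0, and the same 4 mice lay above. Summed over these mice, Ach2 held 29 Chat UMIs of 241180 and noradrenergic neurons 0 of 4964299, at least 199-fold higher in Ach2 against a floor of 3 counts over the group. Over all neurons the ratio of the 2 rates was 767 (counting interval 130 to 31038), and 812 without the shared barcodes.

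The vesicle loader Slc18a3 was the member found in the most Ach2 neurons among the 3 that mark them, 33 of 62 (53.2%, interval 40.1 to 66.0%), with 86 UMIs. Its Ach2 level was 1.27, 0, 3.21, 1.81 and 2.31 UMIs per 10000 in replicates 1 to 5, against 0.144, 0.00590, 0.00798, 0.0142 and 0.0186 in the noradrenergic neurons of the same mice. Ach2 was above in 4 of 5 mice, and in replicate 2 none of 5 Ach2 neurons had a UMI. The value of replicate 5 came from 2 UMIs of 1 neuron with a shared barcode, and without such neurons the levels were 1.30, 0, 1.62, 1.65 and 0, above the noradrenergic ones in 3 of 5 mice. Outside Ach2 a trace remained, in 14 of 1140 noradrenergic neurons (1.23%, interval 0.673 to 2.05%), in 0 of 37 Glut neurons and in 6 of 64 Ach1 neurons (9.38%, interval 3.52 to 19.3%), each of the 6 with 1 UMI at the lowest median depth of the 8 subtypes. The ratio of Ach2 to noradrenergic rates was 78.5 (counting interval 48.3 to 133), and 81.2 without the shared barcodes.

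The choline transporter Slc5a7 had a UMI in 25 of 62 Ach2 neurons (40.3%, interval 28.1 to 53.6%) and in 15 of 1140 noradrenergic neurons (1.32%, interval 0.738 to 2.16%). In replicates 1 to 5 its Ach2 level was 0.934, 0, 0.977, 2.00 and 1.15 UMIs per 10000, and the noradrenergic level was 0.184, 0.00313, 0, 0.00659 and 0.0112. Ach2 was above in 4 of 5 mice and replicate 2 had none. In replicates 3 and 5 the value was 1 UMI in 1 neuron with a shared barcode. Without such neurons the levels were 1.21, 0, 0, 1.80 and 0, so that Ach2 was above in replicates 1 and 4 only. The noradrenergic total of 40 UMIs was uneven: 23 of them came from 1 NA2 neuron of an unmatched mouse, which also held 7 UMIs of Slc18a3, 68 of Vip and 15 of Th in a total of 18482. Of the other noradrenergic genes, the same neuron held 6 UMIs of Dbh, 1 of Slc6a2, 0 of Slc18a2 and 0 of Ddc. The ratio of rates was 27.8 over all neurons (counting interval 18.3 to 42.7) and 73.2 in replicates 1 to 5 (34.1 to 174), where that neuron is absent.

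**Figure D2:**
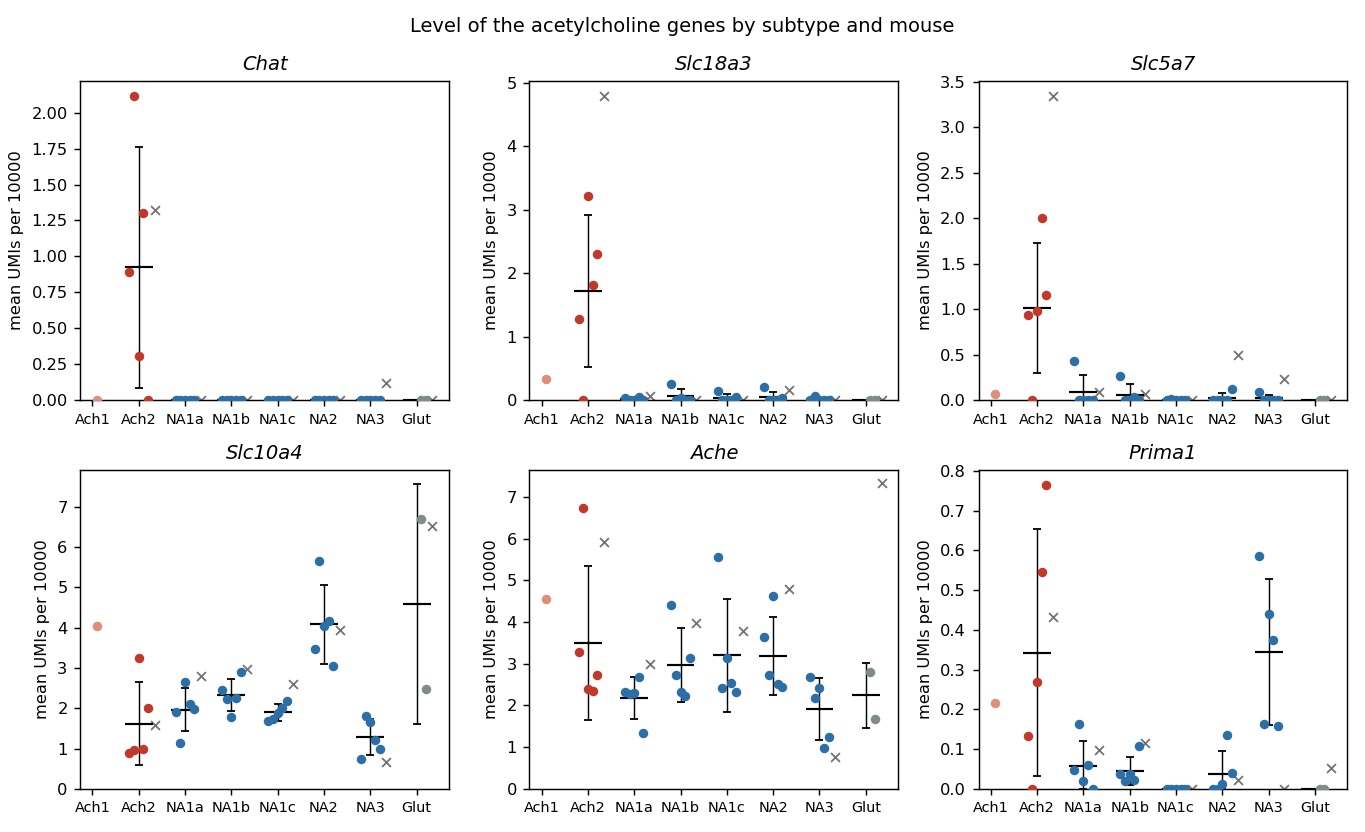
Mean UMIs per 10000 of each gene (linear axes, which differ between panels) by subtype. Each filled point is 1 mouse with at least 5 neurons of the subtype, bars are the mean and SD over mice with the lower end cut at 0, and crosses pool the neurons of the unmatched mice. Chat, Slc18a3 and Slc5a7 lie at or near 0 outside Ach2, Slc10a4 is highest among the noradrenergic subtypes in NA2, Ache overlaps throughout, and Prima1 is raised in Ach2 and NA3.

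These 3 genes were called higher in Ach2 in a limma fit of log2 levels (UMIs per 10000 plus 0.1) over 30 profiles of 5 mice, with mouse as a block and profiles weighted by their neurons. The log2 difference between Ach2 and the mean of the 5 noradrenergic subtypes was 3.07 for Chat (SE 0.35, Benjamini-Hochberg adjusted p = 4.20e-11). It was 3.36 for Slc18a3 (SE 0.42, limma adjusted p = 1.92e-09) and 3.04 for Slc5a7 (SE 0.42, adjusted p = 5.11e-08). The SE pools the spread of all 30 profiles, so these p do not measure the spread of the Ach2 difference over mice. Within replicates 1 to 5 that difference was 3.31, 4.47, 2.02, 3.81 and 0 for Chat. For Slc18a3 it was 2.76, -0.13, 4.95, 4.14 and 4.40, and for Slc5a7 2.33, -0.028, 3.43, 4.31 and 3.42. The sizes are set in large part by the added 0.1, since the noradrenergic level of Chat was 0 in each of these mice and the mean levels of Slc18a3 and Slc5a7 in the 5 noradrenergic subtypes, 0.00204 to 0.0855, lie below it. With a pseudocount of 1 the differences for Chat, Slc18a3 and Slc5a7 were 0.93, 1.28 and 1.03, and with voom weights 5.19, 4.99 and 4.58. Chat, Slc18a3 and Slc5a7 passed the filter on low values (at least 0.2 in at least 3 profiles) only through their Ach2 profiles. Their calls beside the share of all genes are therefore a description and no independent support. Over the 10494 genes tested, 634 (6.04%) were called in either direction, and 250 without the mouse block, a fit that calls the same 3 members. Of the 6 genes, 3 were called higher, where 1.85% of all genes tested were, and 0 lower, where 4.19% were. At an unadjusted p below 0.05 there were 4 higher and 1 lower, and with voom weights on summed UMIs 4 were called higher and 1 lower (Prima1 and Slc10a4 beside the 3). The median difference was 2.13 over the 6 members and -0.25 over all genes tested. Leaving out each mouse in turn gave 2.66 to 3.47 for Chat, 2.95 to 3.83 for Slc18a3 and 2.32 to 3.45 for Slc5a7.

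Without the shared barcodes, and with 2 neurons accepted per profile, the log2 differences were 3.32 for Chat, 2.75 for Slc18a3 and 2.48 for Slc5a7, each still called by limma (adjusted p = 2.26e-09, 5.78e-06 and 6.63e-05, and at most 0.00343 over all alternatives in which they were tested). The share of neurons with a UMI needs no pseudocount. Over 5 mice, Chat was found in 26.0% ± 20.3 of Ach2 neurons (SD, n = 5) against 0% of noradrenergic ones, Slc18a3 in 35.0% ± 24.3 against 1.31% ± 1.12, and Slc5a7 in 22.5% ± 19.2 against 0.851% ± 1.03. An exact two-sided sign-flip test gave p = 0.125 for each (0.15 after adjustment over the 6 genes), with Ach2 higher in 4 of 5 mice, and 5 mice cannot give less than 0.063. On neurons whose barcode is not shared, the Ach2 shares were 42.3% ± 24.2 for Chat, higher in 4 of 5 mice (exact p = 0.125), 32.3% ± 29.9 for Slc18a3, higher in 3 and lower in 2 (exact p = 0.25), and 18.3% ± 27.4 for Slc5a7, higher in 2 and lower in 2 (exact p = 0.50). For Slc18a3 and Slc5a7, the direction in replicate 5, and for Slc5a7 also in replicate 3, thus rests on neurons with shared barcodes.

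**Figure D3:**
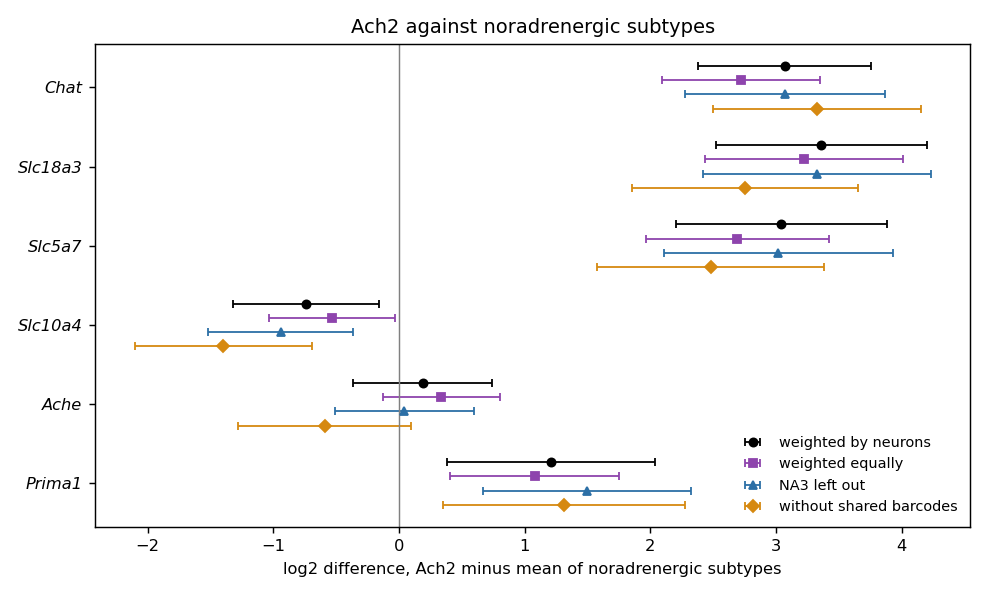
Log2 difference of each gene between Ach2 and the mean of the noradrenergic subtypes, with 95% intervals from limma. Black points are the fit weighted by neurons, purple squares weight each profile equally, blue triangles leave NA3 out, and orange diamonds leave out shared barcodes and accept 2 neurons per profile. Chat, Slc18a3 and Slc5a7 lie between 2.48 and 3.36 in all 4 fits, Slc10a4 lies below 0, Ache lies on either side of 0, and Prima1 lies above 0.

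Within Ach2, single neurons more often showed 2 of the 3 transcripts than all 3. Of 62 neurons, 42 had a UMI of Chat, Slc18a3 or Slc5a7 (67.7%, interval 54.7 to 79.1%): 13 had 1 of the 3 genes, 22 had 2 and 7 had all 3. The 20 neurons with none had a median of 2628 UMIs and the 42 a median of 5465.5, so the shares move with depth. Slc18a3 and Chat were both found in 12 neurons, Slc18a3 without Chat in 21, and Chat without Slc18a3 in 8. Of the 25 neurons with Slc5a7, 20 also had Slc18a3. Without the shared barcodes, 35 of 47 neurons (74.5%) had at least 1 of the 3.

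Transcripts of both transmitter systems were counted under the same barcodes. All 42 of those Ach2 neurons had a UMI of Vip, the peptide that sympathetic cholinergic neurons release with acetylcholine, as did 60 of all 62. Of the 42, 36 had a UMI of Dbh and 19 one of Th, the noradrenaline synthesis enzymes. The level in Ach2 over all neurons was 6.18 UMIs per 10000 for Dbh and 1.95 for Th, against 10.9 and 6.36 in noradrenergic neurons. No subtype here lacks Th and Dbh, so no background share from free RNA can be given for them, and its part in these counts was not tested. In noradrenergic neurons, 28 of 1140 (2.46%, interval 1.64 to 3.53%) had a UMI of Chat, Slc18a3 or Slc5a7, and 26 of these had 1 of the 3. Only 5 neurons outside Ach2 held at least 2 such UMIs, 1 each in NA1a, NA1b, NA2, NA3 and Ach1. Doublets were not removed by any named step, and their part in these counts was not tested.

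**Figure D4:**
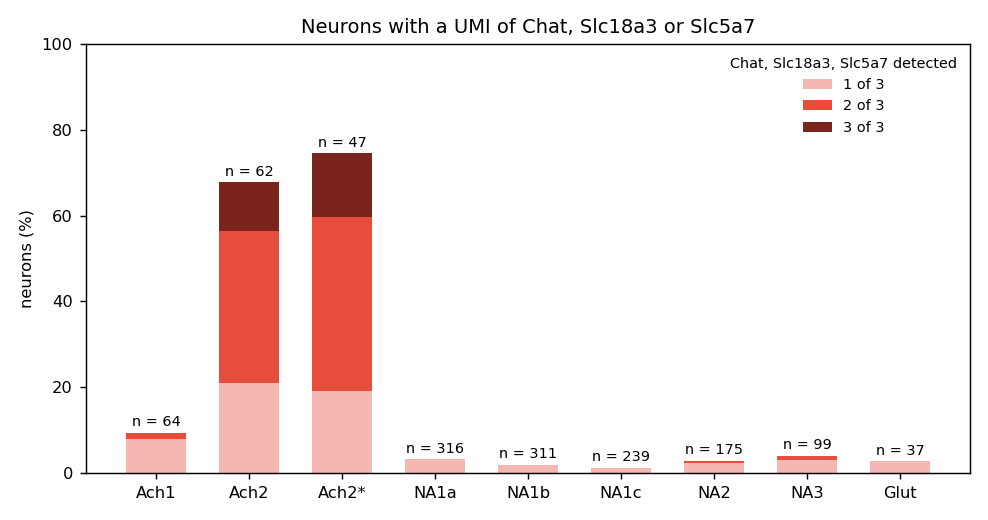
Percent of neurons in each subtype with a UMI of 1, 2 or 3 of the genes Chat, Slc18a3 and Slc5a7, stacked, over all neurons, with n above each bar. Ach2* leaves out neurons with shared barcodes. Ach2 reaches 67.7% (74.5% without shared barcodes), Ach1 9.38%, and no other subtype exceeds 4.04%.

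Slc10a4, the vesicle carrier, was found in all 8 subtypes, and its level in Ach2 was below the noradrenergic mean without passing the test. The gene has 3 exons on the plus strand, chr5:73006883-73012955. Its Ach2 level in replicates 1 to 5 was 0.879, 0.967, 3.26, 0.987 and 2.01 UMIs per 10000, and the noradrenergic level was 2.20, 2.12, 2.78, 2.61 and 2.14. Ach2 was lower in 4 mice and higher in replicate 3, and the ranges overlap. The log2 difference was -0.74 (SE 0.29, 95% interval -1.32 to -0.16), which limma did not call after adjustment (adjusted p = 0.121, range 0.00702 to 0.778 over alternatives, called in 4 of 20). Without the shared barcodes it was -1.40 and was called (adjusted p = 0.00787, 2 neurons accepted per profile), with Ach2 levels of 0.785, 0, 4.6, 0.613 and 1.07 in replicates 1 to 5. With at least 5 neurons per profile it was -1.43 and was not called (limma adjusted p = 0.102). With all neurons and each profile centred on its median gene, the log2 difference was -0.27 (limma adjusted p = 0.732).

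By share of neurons, Slc10a4 was found in 34.4% ± 12.4 of Ach2 neurons and 59.7% ± 7.47 of noradrenergic ones (SD, n = 5 mice). The share was lower in Ach2 in 5 of 5 mice, and the exact sign-flip test gave p = 0.063, the smallest that 5 mice allow (0.15 adjusted over the 6 genes). A share moves with depth, and the median depth of Ach2 was below that of all neurons of the mouse in replicates 1, 2, 3 and 5. With neurons thinned to 2000 UMIs, replicates 1, 3 and 4 remained, and the shares were 30.7% in Ach2 and 40.1% in noradrenergic neurons. The difference was then -9.38 percentage points, lower in Ach2 in all 3 mice (exact sign-flip p = 0.25). The Ach2 share without shared barcodes was 27.6% ± 19.0, again lower in 5 of 5 mice (exact p = 0.063, adjusted 0.25). Pooled over all neurons, the ratio of Ach2 to noradrenergic rates was 0.479 (counting interval 0.341 to 0.656).

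Among noradrenergic subtypes Slc10a4 stood highest in NA2, with 3.48, 5.66, 4.05, 4.16 and 3.06 UMIs per 10000 in replicates 1 to 5. These values lie above every value of NA1a (1.15 to 2.64), NA1b (1.80 to 2.91), NA1c (1.68 to 2.18) and NA3 (0.740 to 1.82). Means over 5 mice were 4.08 ± 0.990 in NA2, 2.33 ± 0.403 in NA1b, 1.96 ± 0.538 in NA1a, 1.90 ± 0.207 in NA1c, 1.62 ± 1.03 in Ach2 and 1.28 ± 0.451 in NA3 (SD). Ach1 had 4.04 in its 1 mouse and Glut 4.59 ± 2.98 in 2 mice, and neither was tested.

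The differences among noradrenergic subtypes were called for 3 of the 6 genes by limma's F test, Slc10a4 (adjusted p = 4.68e-06), Prima1 (0.00158) and Ache (0.00572), where 57.2% of all genes were called. The call for Ache was lost with equal weights (adjusted p = 0.106), averaged natural log values (0.436), thinning (0.063), voom (0.0503) and without replicate 5 (0.0671), and that for Prima1 with thinning (0.581) and with NA3 left out (0.424). Chat, Slc18a3 and Slc5a7 gave adjusted p of 1.00, 0.944 and 0.744. For Slc10a4, NA2 exceeded NA1a by 0.94 on the log2 scale (adjusted p = 0.00189, 34% of all genes called in that contrast), NA1b by 0.71 (0.0154, 42.1%) and NA1c by 0.99 (0.000658, 43.4%). NA3 was lower than NA2 by 1.63 (adjusted p = 4.02e-06, 28.4%) and than NA1b by 0.92 (0.0110, 21.2%), and Ach2 was lower than NA2 by 1.59 (0.000223, 16.9%). The steps NA1b to NA1a, NA1a to NA1c, NA1c to Ach2 and Ach2 to NA3 in this order were not called (adjusted p = 0.707, 0.951, 0.231 and 0.967). These contrasts called 4.67%, 3.36%, 12% and 12.9% of all genes. No member was called between NA1c and NA1b (1.48% of all genes) or between Ach2 and NA1a where Slc10a4, Ache and Prima1 are concerned (5.44%).

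Shared barcodes touch 31.4% of all NA2 neurons, and 17 of 27, 8 of 14, 14 of 49, 14 of 43 and 2 of 17 in replicates 1 to 5. Without them, Slc10a4 in NA2 remained above NA1a by 0.75 (limma adjusted p = 0.0260) and NA1c by 0.79 (0.0136). It also remained above NA3 by 1.43 (9.27e-05), and its step over NA1b of 0.51 was no longer called (0.130). NA3 also held 341 UMIs per 10000 of 10 satellite glia genes (226 to 527 over mice), against 8.68 to 18.2 in the other noradrenergic subtypes and 11.2 in Ach2, with none of the 10 at 0 in NA3. The part of this glial RNA in the NA3 levels of Slc10a4, Ache and Prima1 was not tested.

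Ache, the enzyme that ends the signal, had close pooled shares in Ach2 and noradrenergic neurons. It had a UMI in 40 of 62 Ach2 neurons (64.5%, interval 51.3 to 76.3%) and in 725 of 1140 noradrenergic neurons (63.6%, interval 60.7 to 66.4%). In replicates 1 to 5 the Ach2 level was 3.29, 6.75, 2.39, 2.34 and 2.73 UMIs per 10000, and the noradrenergic level was 3.91, 2.52, 3.14, 2.36 and 2.17. Ach2 was higher in 2 mice and lower in 3 on this scale, and the ranges overlap. The log2 difference from limma was 0.19 (SE 0.28, 95% interval -0.37 to 0.74, adjusted p = 0.751), so a difference of the size seen for Chat, Slc18a3 or Slc5a7 lies outside the interval, and a smaller one in either direction does not.

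The sign of that small difference turned with the neurons used. It was -0.59 without shared barcodes (95% interval -1.28 to 0.10), and the high value of replicate 2 fell to 1.46 UMIs per 10000 in the 2 of 5 Ach2 neurons whose barcode is not shared. By share of neurons, Ache was found in 60.8% ± 15.8 of Ach2 and 62.9% ± 8.23 of noradrenergic neurons (SD, n = 5 mice, exact sign-flip p = 0.875), and without the shared barcodes in 50.8% ± 16.5 of Ach2 neurons, lower in 4 of 5 mice (exact p = 0.188).

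Over subtypes, the mean Ache level ran from 3.50 ± 1.85 in Ach2 through 3.20 ± 1.36 in NA1c, 3.19 ± 0.935 in NA2, 2.97 ± 0.882 in NA1b and 2.18 ± 0.50 in NA1a to 1.91 ± 0.746 UMIs per 10000 in NA3 (SD, n = 5 mice). NA3 had the lowest mean. Its 5 mice had 2.68, 2.19, 2.43, 0.984 and 1.25, which overlap those of every other subtype. On the log2 scale it was below NA2 by 0.87 (adjusted p = 0.0113), NA1c by 0.74 (0.0359) and NA1b by 0.72 (0.0405), and it was not called against NA1a (-0.31, adjusted p = 0.497) or Ach2, which was higher by 0.72 (0.164). The contrast with NA2 was lost without shared barcodes (-0.38, adjusted p = 0.378), and with NA3 left out Ache no longer differed among the noradrenergic subtypes by the F test (0.150). Ache (5 exons, plus strand) overlaps Gm42456, a noncoding RNA on the other strand, and Mir8116 on its own strand, chr5:137287519-137294466.

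**Figure D5:**
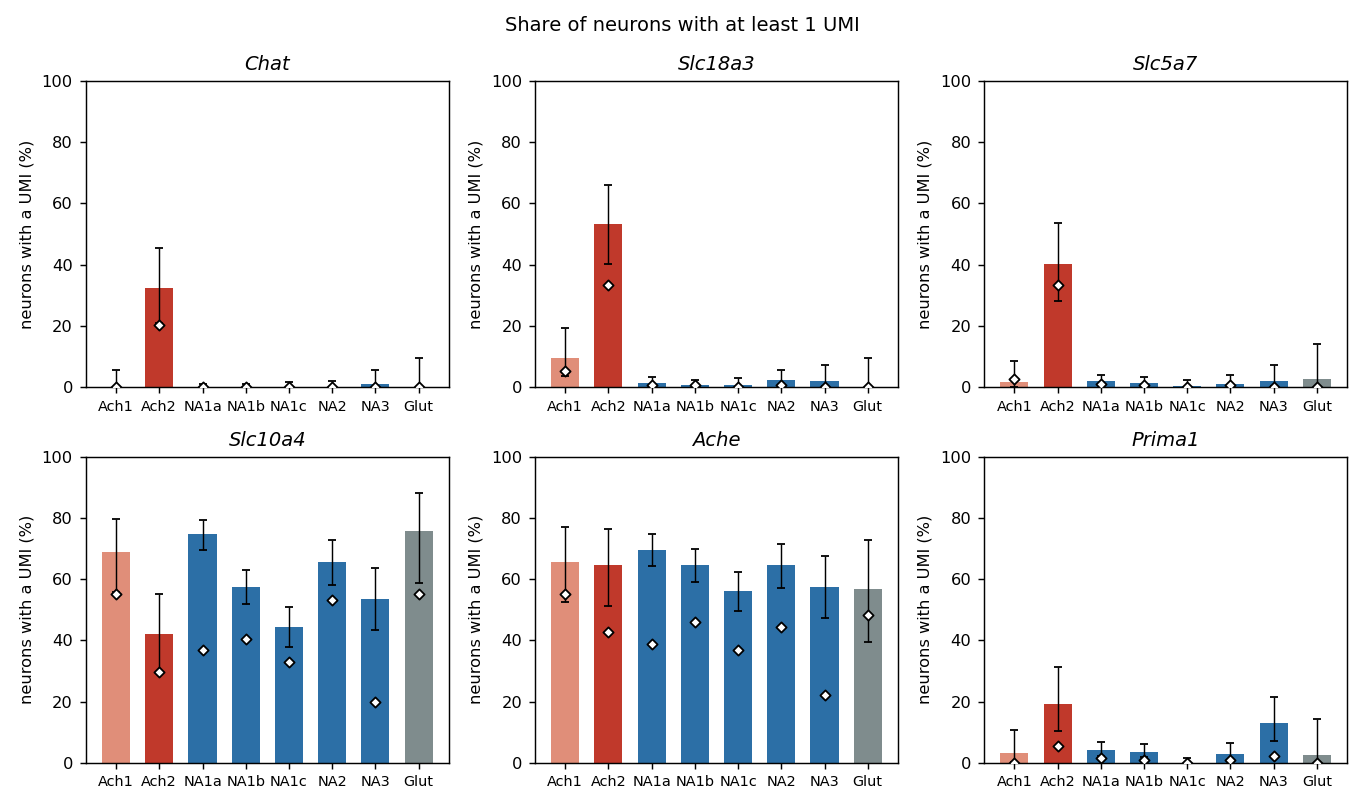
Percent of neurons with at least 1 UMI of each gene by subtype, over all neurons, with exact 95% intervals. White diamonds give the share with each neuron thinned to 2000 UMIs. Chat, Slc18a3 and Slc5a7 stand out in Ach2 at both depths, Slc10a4 is found in 41.9% of Ach2 and 44.4 to 75.7% of the other subtypes, Ache in 56.1 to 69.6% of every subtype, and Prima1 peaks in Ach2 and NA3.

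Prima1, the membrane anchor of the esterase, was sparse and had its highest levels in a cholinergic and a noradrenergic subtype. The gene has 5 exons on the minus strand, chr12:103196908-103242150. It was found in 12 of 62 Ach2 neurons (19.4%, interval 10.4 to 31.4%) and 13 of 99 NA3 neurons (13.1%, interval 7.18 to 21.4%). The share was 4.11% in NA1a, 3.54% in NA1b, 2.86% in NA2, 3.13% in Ach1 and 2.70% in Glut, and 0 of 239 in NA1c, which allows up to 1.26%. All but 1 of the neurons with Prima1 had a single UMI, and at 2000 UMIs per neuron the shares fell to 5.56% in Ach2, 2.22% in NA3 and 1.05% in all noradrenergic neurons, so that depth limits this gene most. NA3 is the deepest subtype, with a median of 6773 UMIs.

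In replicates 1 to 5 Prima1 had 0.132, 0, 0.270, 0.546 and 0.765 UMIs per 10000 in Ach2, against 0.0570, 0.0439, 0.0370, 0.0924 and 0.0611 in noradrenergic neurons. Ach2 was higher in 4 of 5 mice. The log2 difference was 1.21 (SE 0.42, 95% interval 0.38 to 2.04), not called by limma (adjusted p = 0.0664, range 4.22e-06 to 0.769 over alternatives, called in 8 of 19), and it was called with profiles weighted equally (1.08, adjusted p = 0.0178) and with NA3 left out (1.5, adjusted p = 0.0140). Its share was 13.9% ± 7.97 in Ach2 and 3.59% ± 0.937 in noradrenergic neurons (SD, n = 5 mice, exact sign-flip p = 0.125). With shared barcodes removed, the Ach2 levels were 0.171, 0, 0.809, 0.397 and 0.956, and the share was 22.1% ± 18.2, higher in 4 of 5 mice (exact p = 0.125).

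In NA3 the 5 mice had 0.586, 0.164, 0.440, 0.375 and 0.159 UMIs per 10000 of Prima1, while NA1c had 0 in all 5. The NA3 mean of 0.345 ± 0.184 lay above NA1a (0.0583 ± 0.0629), NA1b (0.0450 ± 0.0357) and NA2 (0.0373 ± 0.0577). All 4 contrasts were called by limma, with log2 differences of 1.16 over NA1a (adjusted p = 0.0341, 15.9% of all genes called), 1.24 over NA1b (0.0172), 1.70 over NA1c (0.000717, 21.5%) and 1.28 over NA2 (0.0128). Ach2 was called above NA1b by 1.37 (0.0462, 9.73% of all genes), NA1c by 1.83 (0.00406, 12%) and NA2 by 1.42 (0.0292), and differed from NA3 by 0.13 (0.912). Without shared barcodes the step from NA2 to NA3 was 1.09 (adjusted p = 0.0543). With neurons thinned to 2000 UMIs, none of these Prima1 contrasts was called. Prima1 passed the filter on low values only through its Ach2 and NA3 profiles. Its calls are therefore a description and no independent support. The means of NA1a, NA1b, NA1c and NA2 lie below the added 0.1, which sets the sizes in large part. Satellite glia genes, as given above, are at their highest in NA3 and low in Ach2.

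The genes that feed or accompany the acetylcholine pathway were counted by list. Of 12 genes of choline uptake and phospholipid choline turnover, 10 were tested, 1 was called higher in Ach2 and 2 lower (30.0%, beside 6.04% of all genes), with a median log2 difference of -0.38. These 3 calls were lost without the mouse block, and without shared barcodes (2 neurons accepted per profile) 2 genes were called higher and none lower. The one called higher was Slc44a5, a choline transporter-like protein (1.41, SE 0.43, limma adjusted p = 0.0322, higher in 3 of 5 mice), and the ones called lower were Slc44a2, of the same family (-1.24, adjusted p = 0.0254), and Chpt1, a choline phosphotransferase (-1.39, adjusted p = 0.0281). None of 9 acetyl-CoA supply genes and none of 15 subunits of the vesicle proton pump was called by limma. At an unadjusted p below 0.05 the counts were 1 higher and 0 lower, and 2 higher and 1 lower, and voom weights called 1 higher in each list. With voom weights the choline list had 2 called higher and 0 lower. The smallest p among them belonged to Acly, the ATP citrate lyase that makes cytosolic acetyl-CoA (0.65, adjusted p = 0.188), and to Atp6ap1, a pump accessory subunit (-0.95, adjusted p = 0.0930). Colq, the collagen tail that anchors the esterase in muscle, had a difference of 1.34 (SE 0.44, adjusted p = 0.0519), higher in 5 of 5 mice, and Bche did not pass the filter on low values.

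The transmitter identity lists moved further. Of the 9 cholinergic sympathetic genes 8 were called higher in Ach2 (7 without the mouse block, and 5 of 7 tested without shared barcodes), where 1.85% of all genes tested were. The largest differences were those of Cartpt (6.88), Vip (6.28), Calca (4.71) and Sst (4.07), and Gfra3 was not called (-0.90, limma adjusted p = 0.226). The means of Calca, Sst and Tlx3 in the noradrenergic subtypes, 0 to 0.0660, lie below the added 0.1. Their sizes are set in large part by it, and they passed the filter on low values through Ach2. Of the 10 noradrenergic genes 6 were called lower, where 4.19% of all genes tested were, and 0 higher. Log2 differences were -3.35 for the noradrenaline transporter Slc6a2, -2.40 for the vesicular monoamine transporter Slc18a2, -1.88 for Ddc and -1.78 for Th, each lower in 5 of 5 mice. The medians were 2.40 and -1.27, beside -0.25 for all genes tested. Both lists define the subtypes they are compared over.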

How the data were processed

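Single-cell RNA-seq of stellate ganglia was aligned by the authors with Cell Ranger (2.1.1 in the submitters' processing notes) to GRCm38 with GFP added, and filtered in Seurat to cells with over 500 and under 6000 genes, under 20000 UMIs and under 15% mitochondrial RNA. They deposited, for 1303 neurons and 19224 genes, each value as a natural log, ln(1 + UMIs per 10000), with a subtype per neuron. UMIs were recovered from each neuron's smallest step, and 100% of nonzero values were whole within 0.01. Neurons of a mouse held 916296 to 1196621 UMIs.

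For each mouse and subtype with at least 5 neurons, log2(mean UMIs per 10000 + 0.1) was fitted with limma 3.58.1 (R 4.3.3) over NA1a, NA1b, NA1c, NA2, NA3 and Ach2, for genes with at least 0.2 in at least 3 profiles, blocked on the mouse and with limma's trend option. Profiles of 1 animal are paired, and their mean residual correlation was 0.045 (-0.048 between mice). Adjusted p is Benjamini-Hochberg over all genes, called below 0.05, two-sided. Profiles were weighted by their neurons, unlike the equal weights first planned. On simulated data for Ach2 minus noradrenergic subtypes (10033 genes), equal weights called 12.4% of 9833 unchanged genes. Weighting called 0.895% of them, 57% of genes changed 2-fold and 99% of those changed 4-fold. Changes were set only on genes with a noradrenergic mean above 1 UMI per 10000, so they give no power for Chat, Slc18a3, Slc5a7 and Prima1, which lie below it. Noise was drawn at the summed depth of a profile and not per neuron, so the error rate in the real data may differ. The weighting was decided on simulation, after pooled levels of the 6 genes had been seen. Ach1 and Glut had too few neurons per mouse to enter the fit.

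Shares were compared by exact sign-flip tests over mice (Python 3.11.15, SciPy 1.17.1), and likeness by Pearson's r over the 30 profiles. Counting intervals for rate ratios are exact. The 6 genes and all gene lists were chosen with earlier results of these data known. Named are the 6 genes, up to 4 called genes with the smallest p per list (or the 1 with the smallest p), the 5 genes most like each of the 6, and the 5 largest called differences in each direction whose sign was shared by all 5 mice. Alternatives covered the pseudocount, filter, minimum of neurons, block, weights, summing, thinning to 2000 UMIs, NA3 and each mouse. Removing shared barcodes and centring on the median gene were added after seeing the data.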

Additional observations from a re-analysis of the deposited data

Results flagged for a closer look

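Level values (UMIs per 10000) were searched for a mouse far from the other 4 of its subtype. Of 30 sets of 5 mice, 12 had one. Chance gives about 1 in 20 for measured values, but not for counts near 0: in 5 of the 12 sets a single mouse had any UMI, which meets the criterion by construction, so the 12 are not counted as an excess.

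Replicate 1 stood highest for Slc5a7 in NA1a (0.427, the other mice at 0), NA1b (0.264, next 0.0312) and NA3 (0.0911, others at 0), for Slc18a3 in NA1b (0.259, next 0.0404) and NA2 (0.202, next 0.0343), and for Ache in NA1c (5.56, next 3.14). The Slc5a7 value in NA1a came from 1 neuron with 3 UMIs of it in 1755, and with 11 of Vip, 0 of Th and 1 of Dbh. The Slc18a3 value in NA1b came from 1 neuron with 2 UMIs of it in 2033. Replicate 2 stood highest for Slc5a7 in NA1c (0.0102, others at 0), for Slc18a3 in NA3 (0.0585, others at 0) and for Ache in Ach2 (6.75, next 3.29). In that last case 3 of the 5 neurons carried shared barcodes, and the other 2 averaged 1.46. Replicate 4 stood highest for Prima1 in NA2 (0.137, next 0.0387), and replicate 5 for Prima1 in NA1b (0.107, next 0.0383) and Slc5a7 in NA2 (0.121, others at 0).

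The mice matched to no replicate held 16 Ach2 neurons that enter none of the tests over mice. Of these neurons, 25.0% had a UMI of Chat, 81.25% of Slc18a3, 68.75% of Slc5a7, 68.75% of Slc10a4, 68.75% of Ache and 31.25% of Prima1. None of them carried a shared barcode. Their levels were 1.32 UMIs per 10000 for Chat, 4.79 for Slc18a3, 3.34 for Slc5a7, 1.59 for Slc10a4, 5.92 for Ache and 0.433 for Prima1, and those for Slc18a3 and Slc5a7 lay above all 5 matched mice.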

How the results depend on the processing

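Chat, Slc18a3 and Slc5a7 were called higher in Ach2 in each alternative in which they passed the filter (18, 20 and 19). Chat was not testable with at least 10 neurons per profile or with shared barcodes removed at 5, Prima1 not at 10, and Slc5a7 not after thinning. The number of genes called in Ach2 against noradrenergic subtypes, 634, was 123 with at least 10 neurons per profile, 250 with no replicate block (mouse pairing), 2299 with equal weights (440 higher, 1859 lower), 2093 with voom (1898 higher, 195 lower), 417 on averaged natural log values, 113 after thinning to 2000 UMIs, 96 without shared barcodes at 5 neurons, and 313 to 421 without 1 mouse. Centring each profile on its median gene took the median over genes from -0.25 to 0.22 (log2) and turned 194 higher and 440 lower genes into 620 and 120. Genes called among noradrenergic subtypes, 5998, were 3816 with equal weights and 3393 after thinning.

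Slc10a4 was called with summed UMIs (-1.06), voom (-0.92), NA3 left out (-0.94) and shared barcodes removed at 2 neurons (-1.40). It was not called with centring, where its difference was the smallest in size over the alternatives (-0.27, limma adjusted p = 0.732). With shared barcodes removed at 5 neurons Slc10a4 was not called either (-1.43, limma adjusted p = 0.102). Prima1 was called with a pseudocount of 1 (0.30), a filter at 0.5 (1.21), equal weights (1.08), summed UMIs (1.28), voom (2.53), averaged natural log values (0.13), NA3 left out (1.5) and centring (1.68). Ache turned sign with summed UMIs (-0.017) and shared barcodes removed at 5 (-0.45) and 2 neurons (-0.59), and its share difference did after thinning (10.1 percentage points), at 10 neurons (0.943) and over mice left out (-9.10 to 2.66). The causes were not tested. Dropping the block changed no call of the 6 genes in Ach2 against noradrenergic subtypes. Ach2 rests on 46 neurons of 5 mice, and in simulation the fit called 57% of 2-fold changes.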

Other observations

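Other genes were ranked by their difference between Ach2 and noradrenergic subtypes, among called genes whose direction was the same in 5 of 5 mice. The largest log2 differences with the same direction in 5 of 5 mice, beside Cartpt and Vip, were 4.23 for the basement membrane collagen chain Col4a2, 3.87 for the PDZ and LIM protein Pdlim3 and 3.40 for the EGF receptor ligand Areg. The largest in the other direction, beside Slc6a2 (-3.35), were -3.90 for the integrin chain Itga1, -3.30 for the myosin light chain Myl1, -3.25 for the activin antagonist follistatin (Fst) and -3.09 for the relaxin receptor Rxfp1. Myl1 had no UMI in Ach2 of any of the 5 mice, so its fitted size depends on the added 0.1. The same holds for Pdlim3 and Areg, with noradrenergic means of 0 to 0.0362 and 0 to 0.0940, and for Fst, with 0.0204 in Ach2. The call by limma and the shared direction were conditions for being named here.

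Among all genes tested, those whose log2 level ran most like Chat over the 30 profiles were Calca (Pearson's r 0.952), Calcb (0.940), Nespas (0.928), Fat3 (0.927) and Sst (0.918). For Slc18a3 they were Tcerg1l (0.924), Grin3a (0.909), Slc5a7 (0.885), Spats2l (0.876) and Fam122b (0.811). Slc5a7 had Tcerg1l (0.893), Slc18a3 (0.885), Grin3a (0.851), Abcg2 (0.791) and Chn2 (0.783). These correlations describe profiles that share mice and depth, and 5 of the 30 are Ach2.

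Likeness over profiles did not always carry over to single cells. Slc18a3 was found in 16 of 20 Ach2 neurons with Tcerg1l and in 17 of 42 without it, whereas Chat was found in 7 of 26 Ach2 neurons with Calca and in 13 of 36 without. Tcerg1l had a UMI in 2 of 1241 neurons outside Ach2. Chat and Slc18a3, which share a locus, had an r of 0.510 over profiles.

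The genes most like Slc10a4 and Ache each had a UMI in 289 to 1182 of the 1241 neurons outside Ach2, and those most like Prima1 in 12 to 503. Slc10a4 was most like Tubb5 (0.784), Hcrtr1 (0.765), Lmo1 (0.738), Tppp3 (0.732) and Ddc (0.727). For Ache the list was Gabarapl1 (0.736), Slc25a1 (0.692), Cops3 (0.648), Capns1 (0.648) and Zcchc18 (0.644), and for Prima1 Runx1 (0.828), Tnfaip8 (0.723), Luzp2 (0.715), Ptn (0.709) and Ntn1 (0.700). Ache and Prima1, the enzyme and its anchor, had an r of -0.328, and of 12 Ach2 neurons with Prima1, 8 had Ache.

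Of the marker lists of other cells, 4 of 10 satellite glia genes and 1 of 5 tested fibroblast genes (Dcn) were called lower in Ach2 (4.19% of all genes were), with a median of -1.13 for the glial list. With NA3 left out, which held 341 UMIs per 10000 of the glial genes, 1 and 0 were called lower and the glial median was -0.29. Without the mouse block 1 and 0 were called, and voom weights called 1 glial gene higher and 1 lower. Limma called none of 4 Schwann, 1 endothelial, 3 immune and 2 smooth muscle genes tested, of which 0, 1, 0 and 1 had an unadjusted p below 0.05 (lower in Ach2). Voom weights called 1 immune gene higher.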
